A study of Mus musculus with 2 samples.

Results

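Genes of the enzymes that remove superoxide and peroxides, keep thiols reduced and handle glutathione were described in mouse heart. They were chosen by symbol alone: superoxide dismutases (Sod), catalase (Cat), glutathione peroxidases (Gpx), peroxiredoxins (Prdx) with sulfiredoxin (Srxn1), thioredoxins and their reductases (Txn, Txnrd), the glutathione-making and glutathione-reducing enzymes Gclc, Gclm, Gss and Gsr, the soluble glutathione S-transferases (Gst followed by a class letter and a number), the haem oxygenases Hmox1 and Hmox2, and the quinone reductase Nqo1. With at least 1 protein-coding transcript required, 53 of the 55536 annotated genes in the first quantification matched, among 22015 nuclear protein-coding genes. All are called members below. The study has 1 group and no treatment: whole heart tissue of male B6CASTF1/J mice, F1 offspring of the B6 and CAST strains, aged 36 days. That group holds 2 biological replicates, separate biosamples under a single donor entry. The sources used here do not say whether that entry is 1 animal. They are called hearts here. The spread between them may therefore be partly technical. Total RNA was sequenced after ribosomal RNA reduction in stranded libraries with ERCC spike-ins, which are synthetic RNAs added as a standard.

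Superoxide leaks from the respiratory chain and from oxidases. Superoxide dismutases turn it into hydrogen peroxide, which catalase, glutathione peroxidases and peroxiredoxins then reduce to water. Glutathione peroxidases draw their electrons from the tripeptide glutathione, peroxiredoxins mostly from thioredoxin, and both carriers are recharged by NADPH-dependent reductases. Glutathione S-transferases join glutathione to reactive molecules, among them products of lipid oxidation. Heart muscle is dense in mitochondria, so the forms of these enzymes that are imported into mitochondria (Sod2, Prdx3, Txn2, Txnrd2, and part of Gpx4, Prdx5 and Gpx1) are of particular interest there.

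Several of these enzymes carry selenocysteine, an amino acid written by the codon TGA, which in other genes ends translation. The stretches of coding sequence around that codon are shown because they separate the members into those whose protein needs selenium and those that carry cysteine in its place. Letters are DNA of the GENCODE M21 transcripts, 5′ to 3′, and capitals mark the TGA codon or, in Gpx7 and Gpx8, the aligned cysteine codon.
Gpx1: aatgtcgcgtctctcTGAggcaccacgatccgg
Gpx3: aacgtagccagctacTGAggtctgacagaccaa
Gpx4: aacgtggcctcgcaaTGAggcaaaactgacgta
Gpx7: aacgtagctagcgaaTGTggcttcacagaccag
Gpx8: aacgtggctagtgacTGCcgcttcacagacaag
Txnrd1: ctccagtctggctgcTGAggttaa
Txnrd2: actgtgactggttgcTGAggctaa
Txnrd3: actcagaaaggctgcTGAggctag
In Gpx4 the codon is number 73 of 197 and lies on mm10 at chr10:80054737-80054739, plus strand, and in Gpx1 it is number 47 of 201 at chr9:108339451-108339453, plus strand. In the thioredoxin reductases it is the second-to-last codon, followed by a glycine codon and the stop, for example number 498 of 499 in Txnrd1 (chr10:82896037-82896039, plus strand). Within the window, 19 of 33 bases of Gpx7 and 18 of 33 bases of Gpx8 match Gpx4. In all, 7 members have an annotated selenocysteine: Gpx1 to Gpx4 and Txnrd1 to Txnrd3.

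A further pair of sequences matters for how far 2 transferase genes can be told apart. The coding sequences of Gstp1 and Gstp2 differ at 12 of 630 bases, or 98.1% identity, and 6 of those differences fall in the first 60 coding bases, where capitals mark them.
Gstp1: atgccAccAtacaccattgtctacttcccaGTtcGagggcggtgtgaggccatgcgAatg
Gstp2: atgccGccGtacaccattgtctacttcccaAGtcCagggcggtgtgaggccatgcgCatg
Both genes lie on the minus strand of chromosome 19, Gstp1 at chr19:4035407-4037985 and Gstp2 at chr19:4040285-4046023.

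The libraries held 41846508 and 42481559 expected counts in replicates 1 and 2 (fractional read counts, because reads that fit several transcripts are divided among them). All 8 cardiomyocyte markers were detected, at 28225 and 30952 TPM in sum, and none of the 6 liver or 6 lung epithelium markers reached 1 TPM in both hearts. Markers of red blood cells had a summed level of 20375 and 9364 TPM, and those of adipocytes 478 and 371 TPM, of which Fabp4 made up 382 and 349 TPM. Levels are in TPM, transcript copies scaled to the same total in each library, which compares genes per length. They are given as the value in replicate 1 and in replicate 2 or as mean ± SD (n = 2 throughout). Differences between the hearts are log2 ratios of replicate 2 over replicate 1, from expected counts scaled with edgeR's TMM factors, with a 95% interval that covers counting error only. With 2 hearts in 1 group no test was possible, since an exact sign permutation over 2 values cannot go below p = 0.5. In whole tissue, fewer cells of a type and less RNA per cell cannot be told apart.

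The members were widely and often strongly expressed. At 1 TPM or more in both hearts, 43 of 53 were detected, or 81.1%, beside 49.7% of nuclear protein-coding genes (10943 of 22015). Together they made up 0.749% and 0.783% of nuclear protein-coding TPM (0.766% ± 0.0239). By mean level, 29 members stood above 10 TPM and 10 above 100 TPM. Among nuclear protein-coding genes ranked by level, 15 members were in the top 5% and 21 in the top 10%. The levels were concentrated in few genes: the 5 most abundant, Sod2, Gpx4, Prdx5, Prdx2 and Sod1, held 48.9% of the members' TPM, and the 10 most abundant held 71.3%. Of the enzyme classes, peroxiredoxins with sulfiredoxin held 32.7% ± 0.287 of the members' TPM, superoxide dismutases 20.6% ± 0.0799, transferases 18.7% ± 0.659 and glutathione peroxidases 15.7% ± 0.843. Thioredoxins with their reductases held 6.48% ± 0.120, catalase 2.92% ± 0.0745, the haem oxygenases with Nqo1 1.63% ± 0.0384, and the enzymes that make and reduce glutathione 1.38% ± 0.0161.

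**Figure D1:**
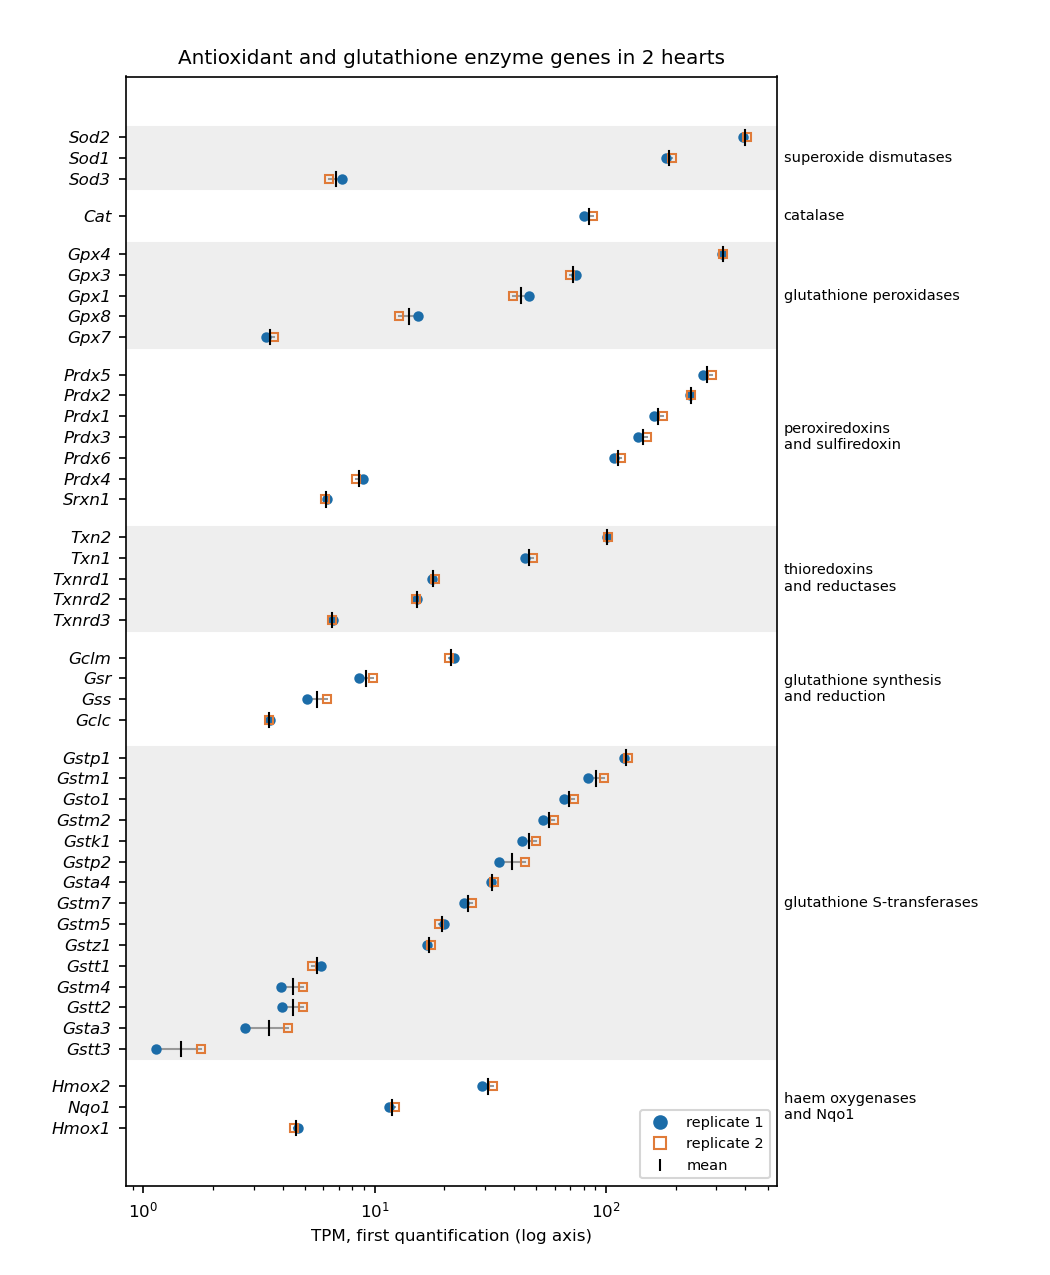
Level of the 43 members with a mean of at least 1 TPM in each heart (filled circles, replicate 1; open squares, replicate 2; black ticks, mean), in TPM on a log axis and grouped by enzyme class. Both hearts lie close together for nearly every gene, and Sod2, Gpx4, Prdx5 and Prdx2 lie above 200 TPM in both.

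Superoxide dismutase RNA was mostly that of the mitochondrial and the cytosolic enzyme. Sod2, the manganese enzyme of the mitochondrial matrix (chr17:13006846-13040063, plus strand), stood at 393 and 409 TPM and was the most abundant member, at rank 129 among nuclear protein-coding genes. Sod1, the copper-zinc enzyme of the cytosol, stood at 181 and 194 TPM. Sod3, which is secreted and binds to the matrix outside cells, stood at 7.21 and 6.35 TPM. The order of the 3 genes was the same in both hearts without overlap. Sod2 held 67.4% ± 0.325 of the family's TPM and Sod1 31.5% ± 0.465. These levels and shares count all transcripts of a gene. Transcripts not annotated as protein-coding held 86.2% and 85.2% of Sod2 TPM, against 0.265% and 0.428% of Sod1 TPM. In the second quantification they held 67.6% and 69.0% of Sod2 and 0.488% and 0.554% of Sod1. In TPM of coding transcripts alone, Sod1 stood above Sod2 in both hearts and both quantifications. Catalase, which breaks down hydrogen peroxide in peroxisomes, stood at 80.7 and 88.2 TPM.

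Among glutathione peroxidases Gpx4 was by far the most abundant. Gpx4 reduces lipid peroxides inside membranes (chr10:80047166-80056439, plus strand) and stood at 319 and 322 TPM, 70.7% ± 1.61 of the family. Gpx3, the secreted form, stood at 74.3 and 69.7 TPM, and Gpx1, the form of cytosol and mitochondria, at 46.3 and 39.8 TPM. The 2 forms of the endoplasmic reticulum followed, Gpx8 at 15.4 and 12.8 TPM and Gpx7 at 3.40 and 3.66 TPM. These 5 genes kept their order in both hearts. Gpx2, known from gut epithelium, and Gpx5 and Gpx6 had no counts in either library. At these depths that leaves room for up to 3 counts, which is 0.0717 CPM (counts per library, scaled) in replicate 1 and 0.0706 CPM in replicate 2.

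Peroxiredoxins formed the largest share of the members' RNA, and 5 of the 6 genes stood above 100 TPM. Prdx5, found in mitochondria, peroxisomes and cytosol, stood at 263 and 287 TPM. Prdx2, a cytosolic form that red blood cells also hold in large amounts, stood at 231 and 234 TPM, and cytosolic Prdx1 at 161 and 176 TPM. Prdx3, the form restricted to mitochondria, stood at 138 and 151 TPM and held 15.4% ± 0.267 of peroxiredoxin TPM, against 29.2% ± 0.416 for Prdx5. The highest value of Prdx3 lay below the lowest of Prdx1, so the levels of these neighbours did not overlap. Prdx6, which works with glutathione, stood at 109 and 116 TPM. Prdx4, the form of the secretory pathway, stood at 8.87 and 8.33 TPM, and Srxn1, which repairs overoxidised peroxiredoxins, at 6.20 and 6.11 TPM.

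The thioredoxin that leads in level was the mitochondrial one. Txn2 stood at 101 and 102 TPM and cytosolic Txn1 at 44.5 and 48.2 TPM, so that Txn2 held 68.6% ± 1.10 of their sum. Their reductases stood lower and, in the first quantification, in another order. Txnrd1, the cytosolic reductase, was at 17.7 and 18.2 TPM, mitochondrial Txnrd2 at 15.3 and 15.1 TPM, and Txnrd3, best known from testis, at 6.59 and 6.56 TPM. Txnrd2 held 38.3% ± 0.485 of reductase TPM. In the second quantification Txnrd2 was above Txnrd1 in replicate 1 (21.8 against 20.5 TPM) and below it in replicate 2 (18.4 against 22.1 TPM).

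The enzymes that make and reduce glutathione summed to 39.1 and 40.5 TPM, less than the glutathione peroxidases with 458 and 447 TPM or the transferases with 513 and 568 TPM. Gclm, the modifier subunit of glutamate-cysteine ligase, stood at 21.9 and 20.99 TPM, and Gclc, its catalytic subunit, at 3.52 and 3.48 TPM, which gave Gclc 14.0% ± 0.284 of their TPM. Transcript lengths weigh on that share: by expected counts Gclc had 394 and 391 counts beside 684 and 767 for Gclm, or 35.2%. Short transcripts held much of the Gclm TPM. The 292-base Gclm-207 held 30.0% and 31.6%, but was at 0 in the second quantification. The intron-retaining Gclm-205, of 495 bases, held 28.9% and 22.8%. The 5589-base Gclm-201 had the most counts, 348 and 446, and stood at 1.88 and 2.41 TPM, below Gclc. Gss, which adds glycine in the final step, stood at 5.08 and 6.24 TPM. Gsr, the reductase that regenerates glutathione, stood at 8.56 and 9.81 TPM.

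Glutathione S-transferases were the largest group, with 22 genes. In both hearts 15 of them reached 1 TPM. Gstp1, of the pi class, was highest at 120 and 125 TPM, followed by Gstm1 of the mu class at 83.5 and 97.7 TPM, Gsto1 of the omega class at 65.8 and 72.5 TPM, and Gstm2 at 53.6 and 59.4 TPM. Gstk1, the kappa form of mitochondria and peroxisomes, stood at 43.4 and 49.8 TPM, Gstp2 at 34.4 and 44.5 TPM, and Gsta4, which is known for its activity on the lipid oxidation product 4-hydroxynonenal, at 31.9 and 32.7 TPM. The values of Gstk1 and Gstp2 overlapped, and so their order was not separated by the spread between hearts. Gstm7 stood at 24.4 and 26.5 TPM, Gstm5 at 20.1 and 18.9 TPM, and Gstz1, which also acts in tyrosine breakdown, at 16.9 and 17.6 TPM. Lower still were Gstt1 at 5.87 and 5.35 TPM, Gstm4 at 3.95 and 4.92 TPM, Gstt2 at 3.98 and 4.89 TPM, Gsta3 at 2.76 and 4.24 TPM, and Gstt3 at 1.13 and 1.78 TPM. By class, mu forms summed to 186 and 209 TPM, pi forms to 154 and 170 TPM, omega forms to 66.4 and 73.3 TPM, alpha forms to 34.9 and 37.1 TPM and theta forms to 11.02 and 12.05 TPM.

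Transferase genes that lie side by side differed strongly in level. The 7 mu genes lie within 149 kb on chromosome 3 (chr3:107895821-108044894), and among the 5 detected ones Gstm1 stood 21.1 and 19.9 times above Gstm4 in replicates 1 and 2. Of the same cluster, Gstm6 had 21 and 35 expected counts, and Gstm3, whose coding sequence is 89.4% identical to that of Gstm1, had 0 in both. The 3 pi genes lie within 24.2 kb on chromosome 19 (chr19:4035407-4059569), where Gstp3 had 2 and 0 counts. Of the 4 theta genes within 63.3 kb on chromosome 10 (chr10:75774115-75837424), Gstt4 had 1 count in each heart. Of the 4 alpha genes 3 lie together on chromosome 9, and there only Gsta4 was detected: Gsta2 had 6.53 and 4.31 counts and Gsta1 had 0. Gsto2, next to Gsto1 on chromosome 19, had 25 and 33 counts.

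The stress-induced haem oxygenase was low. Hmox1, which is induced by haem and oxidants, stood at 4.65 and 4.47 TPM, while Hmox2, the constitutive form, stood at 29.1 and 32.6 TPM and held 87.1% ± 1.22 of their sum. Nqo1, a quinone reductase known as a target of the transcription factor Nrf2, stood at 11.6 and 12.3 TPM.

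The 2 hearts differed little in these genes, as they did in most genes measured. A mean expected count of at least 50 was reached by 43 members, and none of these differed 2-fold or more in either direction. Over all 12541 genes with that count, 1.00% were at least 2-fold higher in replicate 1 and 0.279% in replicate 2. At 1.5-fold the members' count was also 0, beside 2.58% and 1.69% of all genes. The members' log2 ratios ran from -0.28 (Gpx8) to 0.45 (Gsta3). Their median absolute log2 ratio was 0.090, beside 0.11 over all genes. For 30 of the 45 members with a mean count of 10 or more the counting interval held 0, for 11 it lay above 0 and for 4 below. Over all 15749 genes with that count, the interval lay below 0 for 14.9% and above 0 for 13.8%. The members whose interval left out 0 made up 33.3%, near the 28.7% of all genes.

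Among the differences beyond counting error, those toward replicate 2 were Sod1, Sod2, Prdx1, Prdx3, Prdx5, Gstm1, Gstm2, Gsto1, Gstk1, Gstp2 and Gsta3, and those toward replicate 1 were Gpx1, Gpx3, Gpx8 and Sod3. Gsta3 had 100 and 141 counts (log2 ratio 0.45, interval 0.071 to 0.84), and Gstp2 had 690 and 872 counts (0.29, 0.15 to 0.44). Gpx8 had 464 and 394 counts (-0.28, -0.48 to -0.084), Sod3 883 and 781 (-0.22, -0.36 to -0.082) and Gpx1 1161 and 1033 (-0.21, -0.34 to -0.091). The Gstp2 interval does not cover the uncertainty in dividing reads between Gstp2 and Gstp1. None of these intervals covers differences between animals, and the genes listed depend on the TMM scaling. Under spike-in scaling Gpx3 moved to -0.058 and catalase to 0.0996, beside half-widths of their TMM intervals of 0.067 and 0.054. In the second quantification Sod1 was at 0.027, beside a half-width of 0.068.

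The enzyme classes did not all lean the same way. Of the 45 members with a mean count of 10 or more, 27 (60%) were higher in replicate 2 and 18 in replicate 1, with a median log2 ratio of 0.055. Over all genes with that count 50.3% were higher in replicate 2, and the median was 0.0011. Transferases lay mostly toward replicate 2, with 15 of 17 higher there and a median of 0.15, and with 14 of 17 under DESeq2 size factors and in the second quantification. All 5 measured glutathione peroxidases lay toward replicate 1, with a median of -0.13, while 4 of 5 did under library totals and in the second quantification and 3 of 5 under spike-in scaling. The 6 measured selenocysteine members, Gpx1, Gpx3, Gpx4 and the 3 thioredoxin reductases, all lay toward replicate 1, their median being -0.060, while 27 of the other 39 members lay toward replicate 2, the median of those 39 being 0.072. Only the intervals of Gpx1 and Gpx3 lay below 0 among those 6, and Txnrd2 was at -0.0018. Scaling to the spike-ins, which moves the median over all genes to 0.075, left 3 of the 6 higher in replicate 1. Scaling to library totals left 5 of 6, and so did the second quantification. These counts are of signs against 0. Below the median over all genes lay all 5 peroxidases and all 6 selenocysteine members under TMM, DESeq2, library and spike-in scaling. In the second quantification 4 of 5 and 5 of 6 did. Together the selenocysteine members held 17.0% and 15.9% of the members' TPM.

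**Figure D2:**
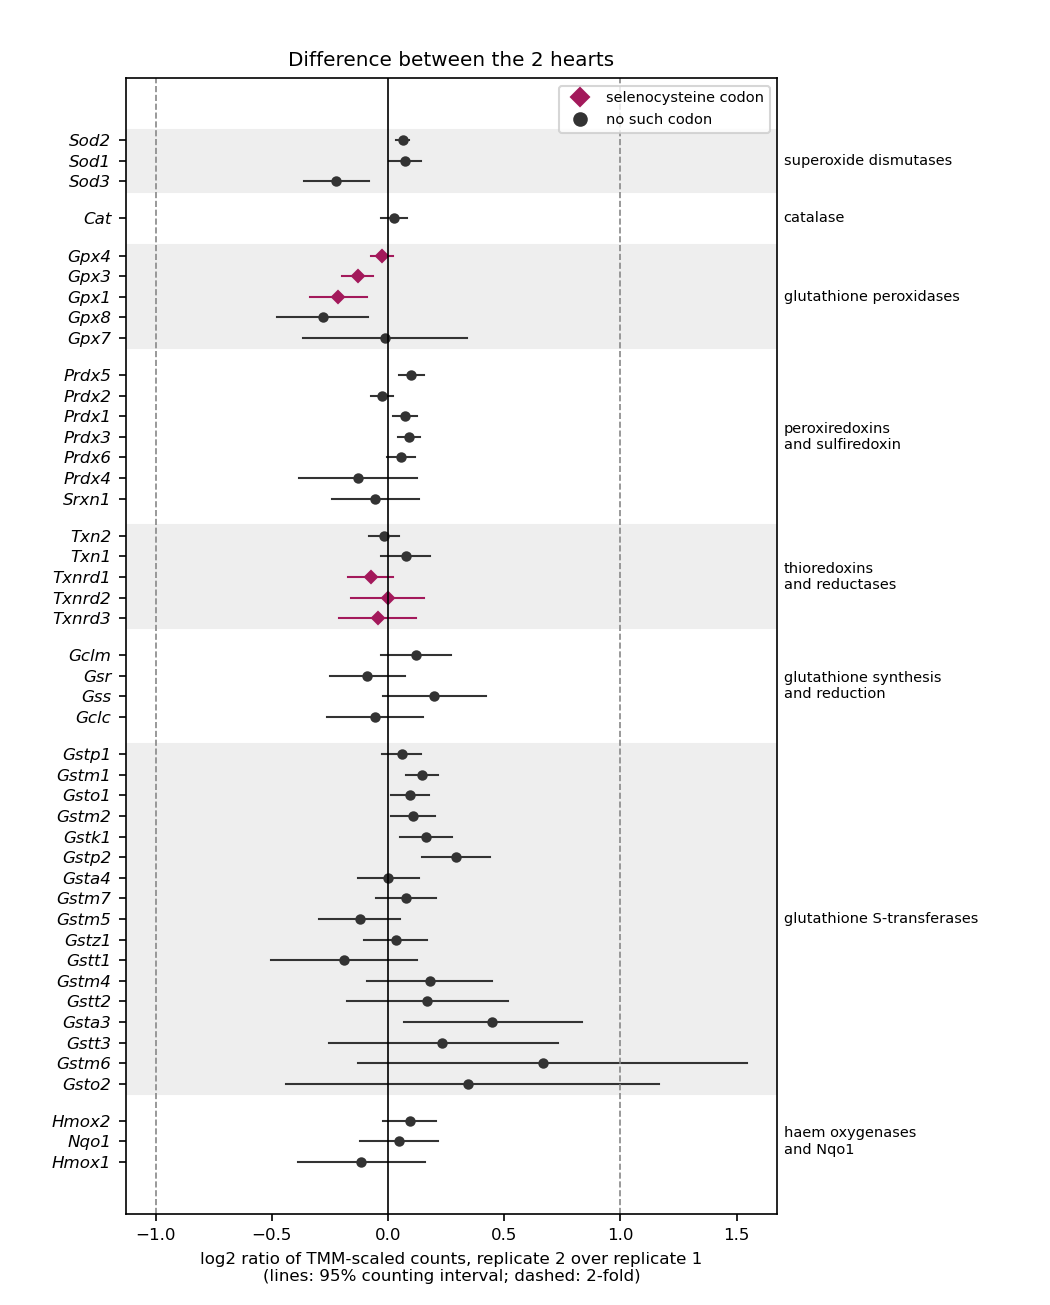
Log2 ratio of replicate 2 over replicate 1, from TMM-scaled expected counts, for the 45 members with a mean count of 10 or more, with 95% counting intervals as lines and 2-fold marked by dashed lines. No point reaches a dashed line, and the 6 members with a selenocysteine codon (diamonds) lie at or left of 0, which scaling to the spike-ins changes for 3 of them.

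Markers of other cells moved between the hearts beside these values. All 8 red blood cell markers were higher in replicate 1, 7 of them by 2-fold or more, among them Hbb-bs, Hba-a1 and Hba-a2, with none at 0, and their summed level was 20375 and 9364 TPM. Prdx2 and catalase, which red blood cells contain in quantity, stood at 231 and 234 TPM and at 80.7 and 88.2 TPM, with log2 ratios of -0.026 and 0.026 whose intervals held 0. Gpx1, also a red blood cell enzyme, was lower in replicate 2 as given above. All 7 adipocyte markers with a mean count of 10 or more were higher in replicate 1, with a median log2 ratio of -2.88, and Adipoq, Plin1, Cidec and Ucp1 passed 2-fold. Of the fibroblast markers 4 of 6 were higher in replicate 1 (3 under spike-in scaling), with summed levels of 495 and 426 TPM, as were all 6 mesothelial markers, with 26.3 and 19.7 TPM. All 8 cardiomyocyte markers were higher in replicate 2 (median 0.081). Endothelial, macrophage, and smooth muscle and pericyte markers had medians of -0.034, -0.11 and -0.021, and under spike-in scaling of 0.040, -0.036 and 0.053. In the skeletal muscle list, which holds genes that heart also expresses, Acta1 passed 2-fold toward replicate 1 with 493 and 242 TPM. The part of these cells in the members' differences was not tested.

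Some members share sequence with other genes, so that their reads have to be divided among genes. The effective lengths in the files correspond to reads of 100 bases. Of the main transcripts of the 43 members at 1 TPM or more, 34 had no stretch of 100 bases that recurred in another annotated gene, 9 had some, and 4 had more than 10% of their stretches shared. These were Gstp2 with 63.5%, Gpx4 with 55.5%, Gstp1 with 52.8% and Gstt3 with 23.9%. Gstp1 and Gstp2 share mostly with each other, as the sequences above show, and the deposited posterior SD was 7.09% and 4.89% of the count of Gstp2 and 2.15% and 1.72% of that of Gstp1. For 39 of 53 members that SD was 0 in both hearts.

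Levels of these genes differed between the 2 quantifications, the second of which was made directly from reads. Genes whose main transcript had no shared stretch differed as well, among them Sod2 and Gsta4. Their other transcripts were not searched. The posterior SD was 0 for Gsta4 and 0.0257% and 0.0244% of the count for Sod2. The part of shared reads in the differences was not tested. Gstp2 stood at a mean of 39.4 TPM first and at 77.6 TPM in the second quantification, a ratio of 1.97, which was the highest among members. The mean of Gstp1 was 122 TPM first and 163 TPM then. The shared stretches of Gpx4 recur in its processed pseudogene Gpx4-ps2, which stood at 32.0 and 32.4 TPM in the 2 hearts in the first quantification and at a mean of 0.621 TPM in the second. Gpx4 itself went from a mean of 320 TPM to 387 TPM between the quantifications. The stretches of Gstt3 recur in the overlapping gene Gm20441, listed at 0 in the first quantification and at 4.17 TPM in the second, where Gstt3 stood at 1.66 TPM. Over the 43 members with a mean of 1 TPM or more, the second TPM was 1.25 times the first at the median, beside 1.17 over nuclear protein-coding genes, and ranged from 0.954 (Prdx5) to 1.97. The other large ratios were those of Prdx2 at 1.84, Gclm at 1.74, Sod2 at 1.69, Gsta4 at 1.68 and Hmox2 at 1.57. The order of the leading genes by mean changed with it: the second quantification put Prdx2 at 427 TPM above Gpx4, and Sod1 at 266 TPM above Prdx5 at 262 TPM, with Sod2 first in both at 401 and 678 TPM. In the second quantification the values of Sod1 (260 and 272 TPM) and Prdx5 (252 and 273 TPM) overlapped, so their order was not separated there. The sign of the difference between hearts was the same in both quantifications for 42 of 45 members.

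**Figure D3:**
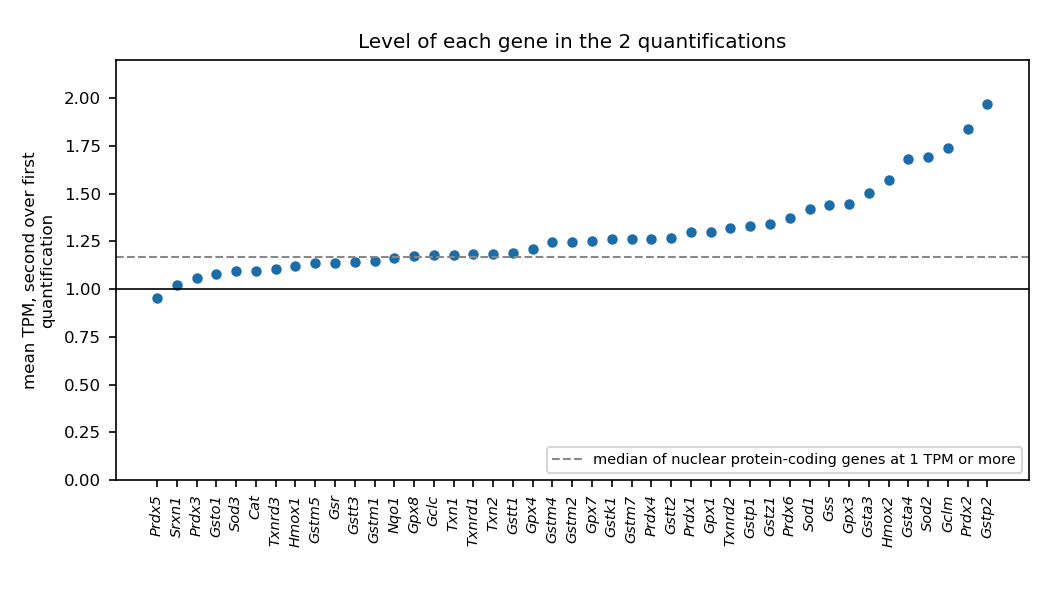
Mean TPM in the second over the first quantification for the 43 members with a mean of at least 1 TPM, sorted, with the median of nuclear protein-coding genes (1.17) as a dashed line and equal levels as a solid line. Prdx5 is the member below 1, and Gstp2, Prdx2, Gclm, Sod2, Gsta4, Hmox2 and Gsta3 lie above 1.5.

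Much of the TPM of several members lay in transcripts that are not annotated as protein-coding. Of 39 members at 1 TPM or more with several transcripts, 36 had the same main transcript in both hearts, and in 12 the main transcript held at least 90% of the gene's TPM in both. In another 12, transcripts of other classes held at least 10% of the TPM on average. In 3 genes the main transcript itself was of such a class. In Sod2 the processed transcript Sod2-207 held 55.0% and 55.3% of TPM, the intron-retaining Sod2-204 30.7% and 29.3%, and the protein-coding Sod2-201 13.9% and 14.8%. Sod2-201 is 5861 bases long and Sod2-204 644, so the picture depends on the unit: Sod2-201 held the most expected counts, 10558 and 11760. Transcripts not annotated as coding held 86.2% and 85.2% of Sod2 TPM but 48.3% and 46.6% of its expected counts.

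Prdx6 and Prdx2 were the other cases. In Prdx6 the transcript Prdx6-208, annotated as a target of nonsense-mediated decay, held 58.8% and 60.8% of TPM, and all transcripts not annotated as coding held 81.5% and 83.4%. For this gene expected counts gave a similar picture, with 71.7% and 74.3%, and so did the second quantification, with 84.3% and 82.3% of TPM. In Prdx2 the intron-retaining Prdx2-205 held 41.5% and 42.0% of TPM, and transcripts of such classes held 23.0% and 22.9% of expected counts. Among genes at a mean of 10 TPM or more, smaller shares of TPM outside coding transcripts were seen in Gstp1 (40.1% and 36.7%), Gclm (38.8% and 31.3%), Gsto1 (29.6% and 32.8%), Gpx4 (18.5% and 17.6%) and Gstm1 (11.7% and 16.2%). Below 10 TPM, Gstt2 had 42.3% and 51.2%, Gsr 17.5% and 33.0%, Srxn1 17.9% and 17.2% and Gstt3 6.14% and 39.9%. In the second quantification those shares were 24.8% and 24.7% in Gstp1, 68.7% and 61.3% in Gclm, 5.43% and 2.37% in Gsto1, and 0 in both hearts in Gstm1. Gpx4 was at 0.273% and 0 there, and Gstp2 at 38.0% and 34.4% after 0 in the first. Total RNA libraries can hold unspliced RNA, and its part in these shares was not tested.

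**Figure D4:**
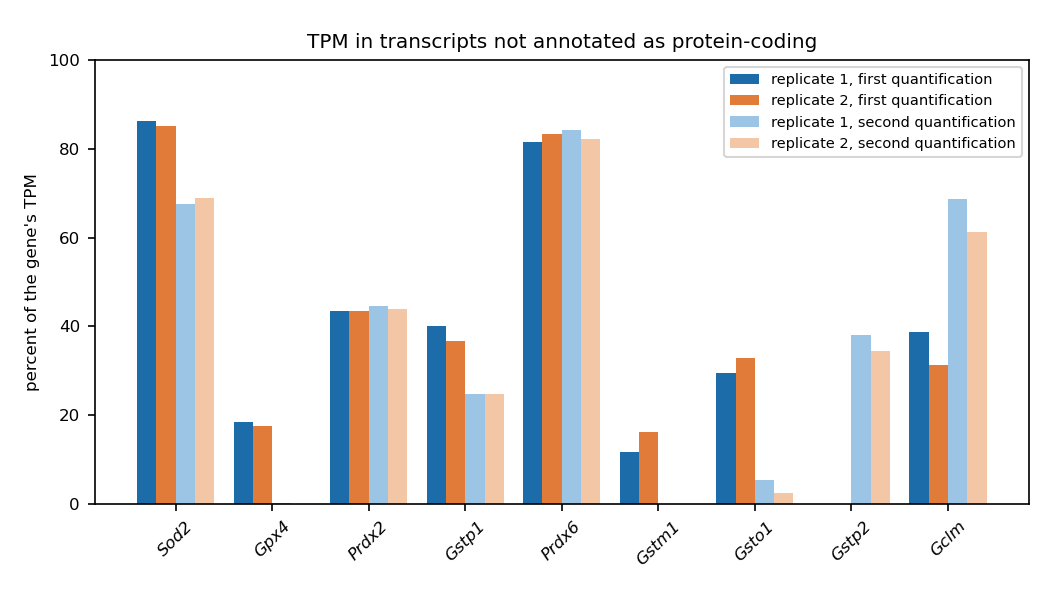
Percent of each gene's TPM in transcripts not annotated as protein-coding, per heart and quantification, for the 9 members at a mean of 10 TPM or more that reach 10% in any of the 4 values. Sod2 and Prdx6 lie above 60% in all 4, while Gpx4, Gstm1, Gsto1 and Gstp2 pass 10% in one quantification only.

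The choice among coding transcripts also depended on the quantification. In 31 of the 39 genes both quantifications gave each heart the same main transcript. In Prdx1 the main transcript was Prdx1-205 with 48.0% and 53.0% of TPM in the first quantification, and Prdx1-205 was at 0 in the second, where Prdx1-202 held a mean of 77.4%. Prdx5-205 held 42.7% and 41.0% in the first and a mean of 0.332% in the second, where Prdx5-201 held 50.3%. Gpx4-202 led in both, with 58.7% and 57.9% in the first and a mean of 94.03% in the second. Within Gpx1, Gpx1-204 (48.4% and 46.5%) and Gpx1-201 (42.6% and 49.7%) changed order between hearts in the first quantification only: in the second Gpx1-201 led in both, with 64.3% and 67.0%. In Txnrd1 the first quantification gave Txnrd1-201 37.0% and 20.0% and Txnrd1-206 35.3% and 52.7%, while in the second Txnrd1-206 led in both hearts and went the other way, with 63.5% and 51.4%. Catalase was steadier, with Cat-201 at 71.4% and 66.8%. In Gclm no transcript held more than 31.6% in the first quantification, and in the second the processed transcript Gclm-202 led with 38.4% and 46.6%. The remaining genes at 10 TPM or more with a main transcript under 90% in either heart kept that transcript in both hearts of the first quantification: Gstm1-201 held 86.2% and 81.6%, Gsto1-201 70.4% and 67.2%, Gstp1-201 59.7% and 62.7%, Gstp2-201 78.1% and 73.3%, and Hmox2-203 81.3% and 79.0%. Gstm5-201 held 82.4% and 83.2%, Gstm7-201 82.4% and 82.4%, Gpx8-201 81.7% and 89.6%, and Txnrd2-203 50.8% and 43.1%.

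Genes around these enzymes were described from lists of the same pathway. The Nrf2 list of 10 genes holds Nrf2 itself, a relative and genes of its control. All were detected, 7 of them higher in replicate 2 (median log2 ratio 0.049), and none passed 2-fold. Nfe2l1, an Nrf2 relative, stood at 143 and 146 TPM, Sqstm1, which binds the Nrf2 inhibitor Keap1, at 126 and 140 TPM, and Cul3, the ubiquitin ligase scaffold of Keap1, at 47.9 and 51.6 TPM. Of 15 genes that supply NADPH 10 were higher in replicate 1 (median -0.066), though 7 of 15 under spike-in scaling, and 2 passed 2-fold toward it: G6pdx, the entry enzyme of the pentose phosphate pathway, with 394 and 201 counts, and mitochondrial Mthfd2 with 85 and 41 counts. Both lay near the cutoff, with log2 ratios of -1.01 and -1.08. In the second quantification the ratios were -0.98 for G6pdx and -0.94 for Mthfd2, so neither passed 2-fold there. The mitochondrial enzymes Idh2 (659 and 633 TPM), Nnt (179 and 193 TPM) and Me3 (45.6 and 50.9 TPM) were the most abundant of that list. In the second quantification Nnt was at a mean of 93.0 TPM, against 186 TPM in the first, and its log2 ratio between hearts was -0.079 instead of 0.066. Idh2 alone stood above every member in both hearts.

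Of 16 genes of glutathione turnover and transport 11 were detected, and of the 14 with a mean count of 10 or more 9 were higher in replicate 2 (median 0.067). Cth, which makes cysteine, passed 2-fold toward replicate 2 with 38 and 91 counts. Slc25a39, a carrier that brings glutathione into mitochondria, stood at 69.7 and 64.2 TPM, Oplah, which recycles oxoproline, at 26.2 and 27.0 TPM, and the dipeptidase Dpep1 at 19.4 and 19.8 TPM. Among 19 other thiol repair genes 9 were higher in replicate 2 (median -0.028), or 13 under spike-in scaling, and none passed 2-fold. The thioredoxin-binding protein Txnip came closest, with 18270 and 36680 counts or 218 and 428 TPM (log2 ratio 0.96), while Txn1 and Txn2, its binding partner and the mitochondrial form, had ratios of 0.076 and -0.017. Sesn1 stood at 73.0 and 82.8 TPM and Msrb1, which repairs oxidised methionine and carries selenocysteine, at 71.3 and 67.5 TPM. Of 6 membrane-bound and sigma-class transferases 3 were detected, led by Mgst3 at 105 and 121 TPM, Mgst1 at 38.98 and 37.3 TPM and Ltc4s at 3.89 and 3.16 TPM, and the 5 measured had a median of 0.053.

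For selenium, 9 genes of the selenocysteine machinery were all detected, with 4 higher in replicate 2 (median -0.0091), or 7 under spike-in scaling, and none past 2-fold. Pstk, a kinase acting on the charged transfer RNA, stood at 14.2 and 15.9 TPM, Sephs2, which makes the selenium donor, at 10.2 and 9.84 TPM, and Secisbp2l at 9.24 and 10.4 TPM. Of 15 other selenoprotein genes 11 were detected, and of the 12 measured 8 were higher in replicate 1 (median -0.081), or 6 under spike-in scaling. Selenop, the selenium carrier of plasma, stood at 153 and 167 TPM, Selenow at 69.6 and 65.6 TPM and Selenof at 57.7 and 49.6 TPM. Over all 20 genes with an annotated selenocysteine and a mean count of 10 or more, 16 were higher in replicate 1, of which 6 are the members above, beside 49.7% of all genes. Under spike-in scaling 11 of the 20 were, beside 34.5% of all genes. This leaning was seen in 1 pair of libraries and was not tested. The signs of the small list medians depend on the scaling: under spike-in scaling that of NADPH supply was 0.0074, that of thiol repair 0.046 and that of the selenocysteine machinery 0.064, while that of the other selenoproteins was -0.0069, beside 0.075 over all genes.

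Promoters were searched for TGACNNNGC, the core of the element that Nrf2 binds, on both strands, in RefSeq windows of GRCm38.p6 that run from 250 bases before to 50 after each start. Of the 46 members with a window, 8 held a match (17.4%), beside 3781 of 27025 genes (14.0%), so the members' share was near that of all genes. The 8 were Gclm, Gsta3, Gstm5, Gstm7, Prdx1, Sod1, Srxn1 and Txnrd1, with a median level of 20.5 TPM, against 14.6 TPM for the members without a match. Those 8 ran from a mean of 3.50 TPM (Gsta3) to 187 TPM (Sod1), and a link between the match and the level was not tested.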

How the data were processed

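Total RNA of 2 biological replicates of heart tissue was measured, with 300 ng of RNA per library, as the labels state. Expected counts per gene and transcript (a first quantification) were deposited by the authors, on mm10 with GENCODE M21 according to the sample notes, with TPM, FPKM and the percent of a gene's TPM in each transcript. The authors also deposited a posterior SD of each count, a score of the uncertainty in dividing reads. Estimated counts and TPM of a second quantification were deposited by the authors per transcript, and were summed per gene here. The sources used here name no tool or version for either.

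Members were taken by symbol from the second quantification's transcript names and joined by gene ID. The members, the lists and the rules were chosen with earlier results of these data known. Every member is accounted for, those at a mean of 1 TPM or more with values, and of each pathway list the 3 genes of highest TPM and any past 2-fold are named. Of the marker lists, for brevity, only some genes past 2-fold and Fabp4 are named, and the result of 1 gene is not reported here. TMM factors (edgeR 4.0.16, R 4.3.3) came from 15103 genes without spike-ins and tRNA entries, with counts rounded. Ratios used a prior count of 1 and Clopper-Pearson intervals. Counting intervals and floors (3 counts) cover counting error only, since without molecular identifiers reads are not separate molecules. The 2-fold rule, at a mean count of 50 or more, is a rule of size, tested on simulated data. With a simulated coefficient of variation of 0.1, it held for 100% of 200 genes changed 4-fold and for 0.0081% of unchanged genes. Changes of other sizes were not simulated, so how the rule treats them is not known. Alternatives covered thresholds, filters, scalings (DESeq2 1.42.0 size factors, library totals, spike-ins), prior counts, units, each heart alone and the second quantification. FPKM, which the authors deposited beside TPM, was not used here, and reads were not separated by parental allele.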

Additional observations from a re-analysis of the deposited data

How the results depend on the processing

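No paired analysis was possible because the study has only 1 group. Detection (36 to 46 members under the other thresholds and the second quantification), the counts past 2-fold, the median ratio and the number of genes with 1 main transcript in both hearts moved little, except that without a filter on low counts 1 member, Gstp3 with 2 and 0 counts, passed 2-fold toward replicate 1. The members' share of nuclear protein-coding RNA came to 0.416% of expected counts and to 0.795% of the second quantification's TPM. By expected counts, which favour long transcripts, shares within families were 83.0% for Sod2, 13.7% for Sod1, 58.4% for Gpx4, 28.5% for Gpx3, 8.61% for Gpx1, 19.4% for Prdx5, 22.5% for Prdx3, 73.0% for Txn2, 22.2% for Txnrd2, 35.2% for Gclc and 85.0% for Hmox2. In the second quantification they were 71.3% for Sod2, 27.9% for Sod1, 68.1% for Gpx4, 18.3% for Gpx3, 21.4% for Prdx5, 12.5% for Prdx3, 41.3% for Txnrd2, 9.97% for Gclc and 90.4% for Hmox2. The order of Prdx5 and Prdx3 is thus reversed by expected counts. With each heart alone detection was 43 and 44 members, and the share of nuclear protein-coding RNA 0.749% and 0.783%. Among 43 members' ratios the sign changed for 1 with DESeq2 size factors, 3 with library totals, 8 with spike-ins and 3 in the second quantification.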

Other observations

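Genes that feed or surround the members were also measured. Of 14 genes of oxidant-producing enzymes 8 were detected, and of the 12 with a mean count of 10 or more 8 were higher in replicate 2 (median log2 ratio 0.034) and none passed 2-fold. Xdh, the xanthine oxidoreductase, stood at 55.9 and 69.7 TPM, Cyba, a subunit of NADPH oxidases, at 15.8 and 15.5 TPM, and the monoamine oxidase Maob at 13.7 and 14.4 TPM. Nox1 and Nox3 had 0 counts in both hearts, and Nox4 had 51 and 54.

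All 11 genes of haem synthesis and breakdown were detected, 7 of them higher in replicate 2 (median 0.042). Alas1, the housekeeping form of the first enzyme of haem synthesis, stood at 166 and 193 TPM and Fech, the last enzyme, at 86.4 and 73.98 TPM. Alas2, the form of red blood cell precursors, stood at 91.1 and 39.8 TPM and passed 2-fold toward replicate 1. Of 8 genes that deliver metals to these enzymes or carry them into peroxisomes 5 were higher in replicate 1 (median -0.027, or 3 of 8 and 0.047 under spike-in scaling) and none were past 2-fold. The metallothioneins Mt1 (217 and 186 TPM) and Mt2 (86.3 and 59.1 TPM) led that list, followed by the copper chaperone Atox1 (45.1 and 45.9 TPM).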
